A study of Mus musculus with 3 samples.

Results

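Genes of the cilium were read out in neocortex taken at postnatal day 13 from 3 wild-type mice of the outbred CD1 stock. They were chosen by symbol: intraflagellar transport (Ift), Bardet-Biedl syndrome (Bbs), axonemal dynein (Dnah, Dnai), tektin (Tekt), radial spoke (Rsph), central apparatus (Spag6, Spag16, Spag17, Hydin), numbered cilia and flagella associated (Cfap) genes, Arl13b and the regulator Foxj1. The platform annotation gave 54 such probe sets, for 53 of the 14806 genes that had a probe set of their own. The array reported 23172 probe sets, 14938 of them with a single gene symbol. Each animal had 1 array, and the arrays form 1 group with no other genotype, age or treatment, so they give levels and the spread between animals and no contrast between conditions. Of 84 RefSeq genes with a matching symbol, 31 had no single-gene probe set, among them Arl13b, Dnah6, Dnah9 and Rsph4a, and no Dnai gene had one. Another 5 probe sets carried a matching symbol together with other genes and were not used here.

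A primary cilium is a single, non-motile antenna that most cells of the brain, neurons and astrocytes included, carry, and it concentrates receptors such as those of the Hedgehog pathway. Motile cilia stand in tufts on ependymal cells, which line the ventricles, and add to the microtubule core the dynein arms, radial spokes and central apparatus that drive beating. Both kinds are built by intraflagellar transport, in which IFT-B proteins move with kinesin towards the tip and IFT-A proteins with dynein back to the base, while the BBSome carries membrane proteins. The Ift and Bbs genes are therefore needed in both kinds of cilium, and the dynein, spoke and central apparatus genes in the motile kind and in the sperm tail. The neocortex holds few motile cilia apart from the ependyma at its edge.

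Promoter sequences are shown first for the genes whose region near the start held the letters of an X-box, the site bound by RFX transcription factors, which are known regulators of ciliary genes. The regions span 250 bases before to 50 bases after each start in the RefSeq table for GRCm38.p6 and were available for 45 of the 53 genes. The full form, GTNNCC and GGNNAC with 2 bases between them, reads the same on both strands. It occurred in 8 of the 45 genes (17.8%), against 2.16% of the 27025 genes in the table. That table is a wider set than the 14806 genes from which the members were drawn. These are 4 of 17 Ift and Bbs genes and 4 of 28 motile axoneme genes. Each line gives 8 bases on either side of the match on the gene's strand, 5′ to 3′, with the match in capitals.
Ift57 (chr16:49699199-49699228, + strand): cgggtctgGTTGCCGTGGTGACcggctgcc
Ift22, first match (chr5:136908079-136908108, + strand): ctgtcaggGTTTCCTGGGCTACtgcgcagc
Ift22, second match (chr5:136908109-136908138, + strand): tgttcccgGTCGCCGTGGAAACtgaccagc
Bbs4 (chr9:59353464-59353493, - strand): ctcagctgGTCGCCCGGGAAACggtcggct
Bbs7 (chr3:36613489-36613518, - strand): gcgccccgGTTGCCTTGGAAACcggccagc
Rsph9 (chr17:46144185-46144214, - strand): ggctcaggGTCTCCATGGAGACagcttcta
Cfap126 (chr1:171122955-171122984, + strand): tgttcaagGTATCCATGGCTACttctcagt
Cfap206 (chr4:34730208-34730237, - strand): cgcgttccGTTTCCACGGTTACgcgactgc
Cfap298 (chr16:90935016-90935045, - strand): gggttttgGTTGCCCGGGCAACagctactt

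The match began 87 bases before the start in Ift57 and 6 before it in Rsph9, whose match overlaps the start, while in Bbs4 it lay after the start. In all, 7 spellings were searched on both strands, and the one shown was picked after the counts were seen. The single arm GTTGCC occurred in 17 of 45 genes (37.8%) and in 14.1% of all genes. In 3 of the 8 genes above (Bbs7, Cfap298, Ift57) it is the first arm of the match shown. With any base in place of the first G of GGNNAC, a looser form that every match above also satisfies, the count was 13 of 45 (28.9% against 5.26%). The stricter pair of arms GTTNCC and GGNAAC occurred in 2 genes with 2 bases between them (0.529% of all genes) and in 1 with 1 base (0.311%), and GTTGCC followed directly by ATGG in 0 (0.633%). A forkhead motif, TGTTTAC, of the kind bound by FOXJ1, occurred in 2 of 45 genes, Cfap20 and Tekt3 (4.44% against 4.05%). A match describes letters only and does not show that a factor binds.

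Rsph9 and Ift57 had the lowest unadjusted p-values of the genes chosen by symbol in the comparison of mice described further on. Both hold a match, so their whole regions are given, with the match in capitals. Ift74, Cfap36, Rsph1 and Cfap300, the others with an unadjusted p under 0.05 in limma's model there, are not among the genes with a match. A link between a match and the spread between mice was not tested. The Ift57 region also holds the stricter arms with 1 base between them, downstream of the capitals.
Ift57 (chr16:49699044-49699343, + strand): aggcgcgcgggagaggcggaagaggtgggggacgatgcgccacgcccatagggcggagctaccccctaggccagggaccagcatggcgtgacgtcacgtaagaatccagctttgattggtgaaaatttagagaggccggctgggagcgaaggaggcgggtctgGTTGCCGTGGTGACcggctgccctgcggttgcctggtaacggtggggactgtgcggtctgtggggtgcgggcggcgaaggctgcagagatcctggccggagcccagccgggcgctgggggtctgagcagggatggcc
Rsph9 (chr17:46144151-46144450, - strand): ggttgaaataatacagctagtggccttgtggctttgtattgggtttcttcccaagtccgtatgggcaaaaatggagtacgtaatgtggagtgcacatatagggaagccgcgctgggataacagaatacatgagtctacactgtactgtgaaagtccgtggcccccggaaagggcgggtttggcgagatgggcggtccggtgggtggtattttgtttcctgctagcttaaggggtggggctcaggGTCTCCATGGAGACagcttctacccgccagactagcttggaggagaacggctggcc

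The authors deposited linear intensities per probe set, and all levels here are their log2 values. The median intensity over all probe sets was between 230.6 and 256.6 on the 3 arrays. There was no control tissue, so 809 probe sets of olfactory, vomeronasal and trace amine receptor genes, which belong to sensory tissue, stood in for background. Their 95th percentile on an array was taken as its limit and was 6.93 in mouse 1, 6.79 in mouse 2 and 6.77 in mouse 3. Below, a probe set above the limit is one that passed it in all 3 mice, as 27 of the 809 receptor probe sets themselves did. Probes differ in their own background, so passing does not prove detection, and for the same reason no gene's level is ranked against another's. As a check of the label, all 14 measured markers of neurons and interneurons, 4 of astrocytes and 5 of oligodendrocytes were above the limit. All 5 of microglia, 5 of endothelium and 9 of meninges and fibroblasts were as well, and so were 73.9% of all single-gene probe sets, so passing does not single out a tissue.

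Of the 54 cilia probe sets 40 were above the limit (74.1%), against 73.9% of all single-gene probe sets, a share close to the background. The 2 classes lay on either side of that share. Of 20 Ift and Bbs probe sets 19 passed, with a median level of 9.78, and of 33 motile axoneme probe sets 20 passed (60.6%), with a median of 7.71, where the median of all single-gene probe sets was 8.90. The median of the Ift and Bbs genes was 9.65, 9.94 and 9.83 in mice 1 to 3, and that of the motile genes 7.64, 7.63 and 7.79, so the order of the class medians was the same in every animal. The difference between the classes sets different probes against each other, the same ones on every array, and was not tested. With the limit at the 99th percentile of the receptors, 19 Ift and Bbs probe sets and 13 motile ones remained above it.

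**Figure D1:**
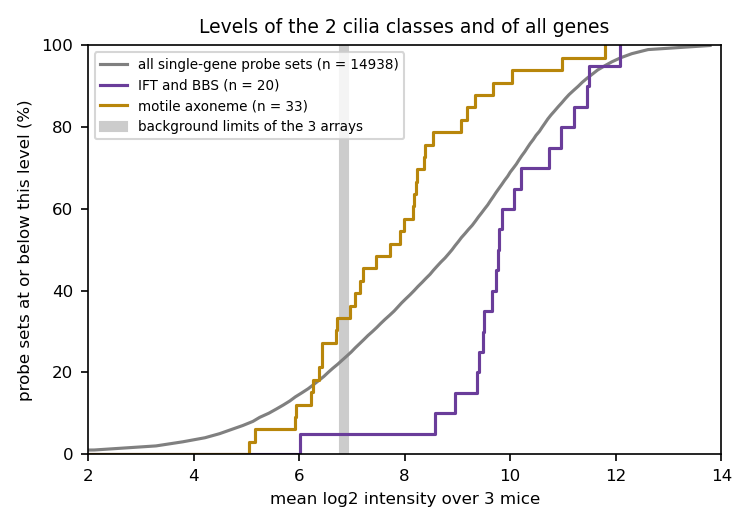
Cumulative share of probe sets (%) against mean log2 intensity over 3 mice for 20 Ift and Bbs probe sets, 33 motile axoneme probe sets and all 14938 single-gene probe sets, with the background limits of the 3 arrays as a grey band. The curve of the Ift and Bbs genes lies to the right of that of all genes over most of its course, with 1 probe set left of the band, and the curve of the motile genes lies mostly to the left.

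All 14 Ift genes passed the limit, the nearest of them, Ift140, by at least 1.61. Ift20, an IFT-B subunit also known at the Golgi, read 11.93, 12.27 and 12.04 in mice 1 to 3. Ift22 and Ift27, small GTPase-like IFT-B subunits, stood at 11.49 ± 0.18 and 9.49 ± 0.08 (SD, n = 3, as for all errors below). Ift88, the IFT-B subunit whose loss in mice is known to remove cilia, read 9.64, 9.85 and 9.69, a spread of 0.11. The remaining IFT-B genes lay between Ift80 (9.37 ± 0.09) and Ift46 (11.46 ± 0.18), with Ift52 at 10.96 ± 0.11, Ift81 at 9.84 ± 0.21 and Ift172 at 9.50 ± 0.13. Of the IFT-A subunits, Ift140 read 8.87, 8.39 and 8.46, Ift122 stood at 9.41 ± 0.13 and Ift43 at 9.66 ± 0.24.

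Of the 6 Bbs genes, the 5 that encode BBSome subunits were above the limit and Bbs12 was not. Ttc8, a BBSome subunit whose symbol lies outside the naming rule, was above it too, at 9.44 ± 0.17. Bbs9 read 10.49, 10.87 and 10.85 in mice 1 to 3, lowest in mouse 1 and near equal in the other mice. Bbs4 stood at 10.20 ± 0.18, Bbs5 at 10.07 ± 0.32 and Bbs2 at 9.77 ± 0.14. Bbs7 read 8.99, 8.93 and 8.92, the smallest spread of all 54 members (SD 0.03). Bbs12, a chaperonin-like protein that helps assemble the BBSome rather than being part of it, read 6.29, 5.77 and 5.96, under the limit in every animal. It was the only one of the 20 Ift and Bbs probe sets below it.

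Foxj1, the transcription factor that switches on the motile cilium program, read 7.97, 8.20 and 8.08, above the limit by at least 1.04 in each animal. Its spread of 0.11 was smaller than that of most motile axoneme genes, whose median SD was 0.23. In bulk tissue fewer cells of a type and less RNA per cell cannot be told apart, which holds for every level given here.

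Among the dynein heavy chains, the motors of the axonemal arms, 4 of 7 probe sets were above the limit. Dnah1, an inner arm chain, was measured by 2 of them, which read 8.63, 7.98 and 8.47 and 8.03, 8.02 and 7.93, so that the first differed more between the mice (SD 0.34) than the second (0.05). Dnah2, of the inner arms, read 8.55, 8.19 and 7.90, and Dnah5, of the outer arms, 7.65, 7.47 and 7.25. Both were highest in mouse 1 and lowest in mouse 3. Dnah11, an outer arm chain, was under the limit on every array (6.27 ± 0.12). Dnah14 read 6.98, 6.91 and 6.23 and passed the limit in mice 1 and 2. Dnah8, an outer arm chain best known from sperm, read 5.47, 6.80 and 5.49 and passed it in mouse 2, by little, with the widest spread of all members (SD 0.76).

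The structural parts of the motile axoneme were split in the same way. Of the central apparatus genes, Spag6 read 8.77, 8.52 and 8.31 and Hydin 7.11, 7.11 and 6.94, the latter above the limit by 0.17 at its nearest. Spag16 (5.21, 5.09 and 5.20) and Spag17 (5.95 ± 0.41) were under the limit in every mouse. Mice have a near-identical copy of Spag6, Spag6l, so the reading of Spag6 may hold signal of both.

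All 3 radial spoke genes were above the limit. Rsph1 and Rsph9, of the spoke head, read 7.64, 8.51 and 8.34 and 8.63, 9.45 and 9.47, both lowest in mouse 1. Rsph6a, a paralogue known from mouse sperm, read 9.62, 9.84 and 9.58. Of the tektins, filament proteins inside the doublet microtubules, Tekt2 read 8.17, 8.44 and 8.10, and Tekt1 7.02, 7.44 and 7.17, within 0.092 of the limit in mouse 1. Tekt3 was under it, at 6.32, 6.08 and 6.31.

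Of the 16 Cfap genes 9 were above the limit. Cfap36, which is known to bind the ciliary GTPase Arl3, read 11.45, 12.19 and 11.76, highest in mouse 2, and Cfap20, a protein of the doublet microtubules, stood at 10.99 ± 0.23. Cfap410 and Cfap97 stood at 10.03 ± 0.16 and 9.33 ± 0.06. Cfap300 and Cfap298, linked to dynein arm assembly, stood at 9.06 ± 0.36 and 8.39 ± 0.12, and Cfap299, Cfap69 and Cfap52 at 8.18 ± 0.25, 7.92 ± 0.13 and 7.71 ± 0.15. Not all of these proteins are restricted to motile cilia, and without the Cfap genes the motile class had 11 of 17 probe sets above the limit and a median of 7.45.

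Cfap126, also called Flattop, read 6.77, 7.33 and 7.39, and Cfap161 read 6.42, 7.19 and 7.27. Both were above the limit in mice 2 and 3 and under it in mouse 1. The remaining 5 were under the limit in every mouse: Cfap65 (6.71 ± 0.14), Cfap100 (6.43 ± 0.29), Cfap206 (6.43 ± 0.15), Cfap57 (6.38 ± 0.46) and Cfap61, which read 4.57, 5.47 and 5.14.

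**Figure D2:**
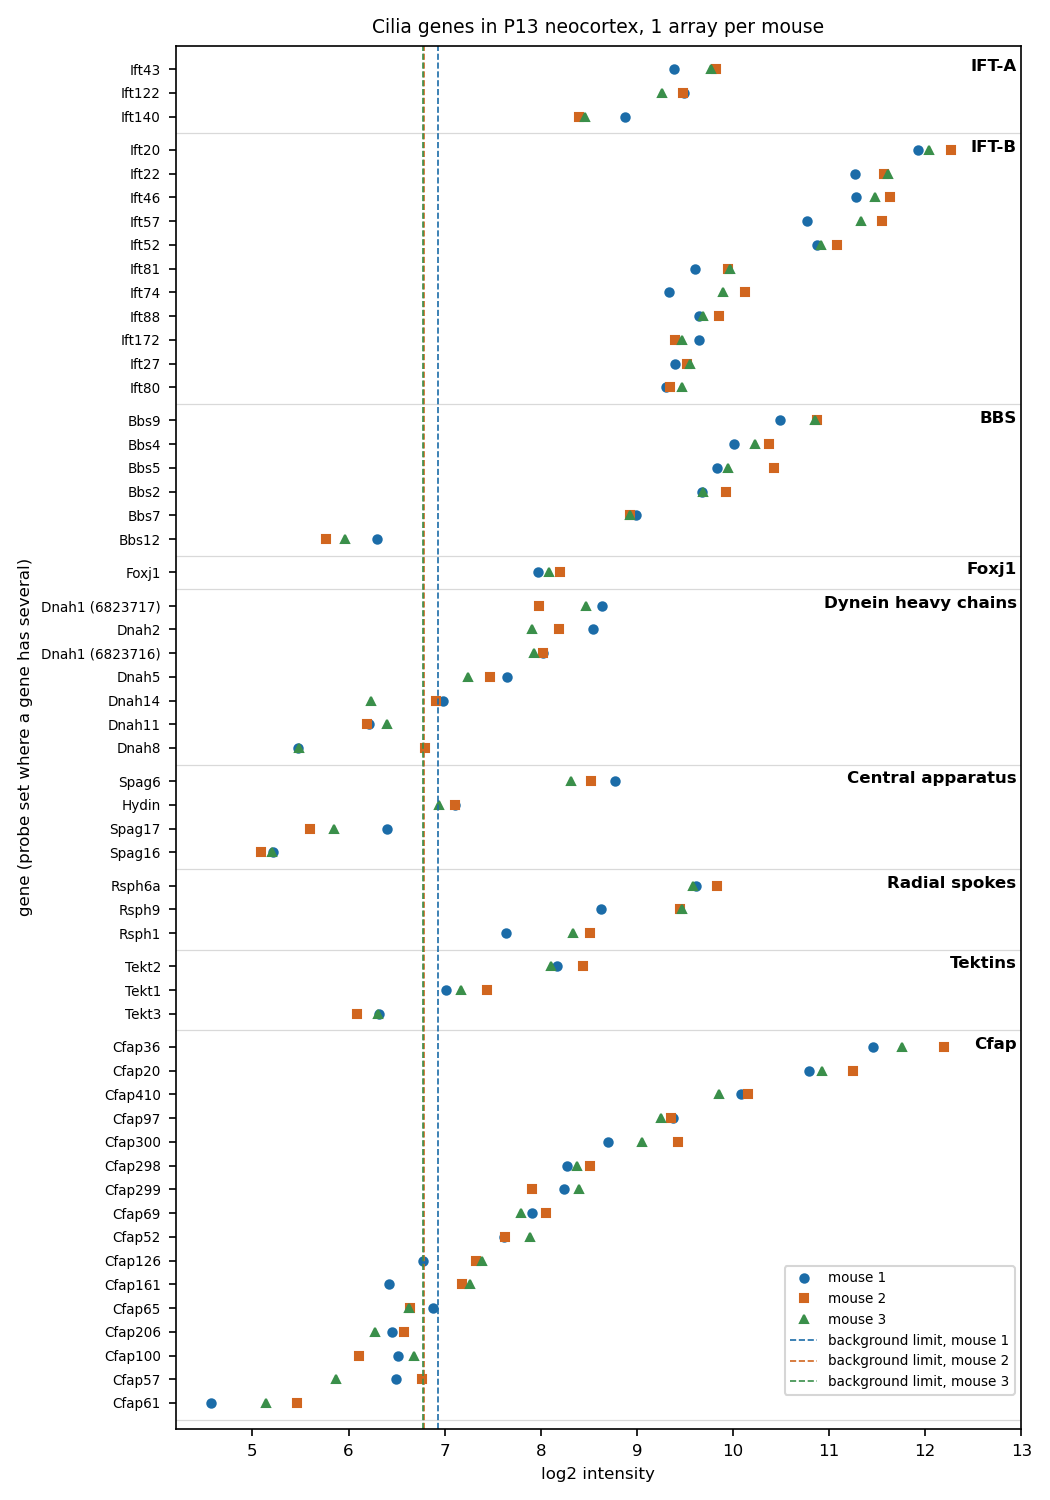
Log2 intensity of each of the 54 cilia probe sets in mouse 1 (circles), mouse 2 (squares) and mouse 3 (triangles), grouped by family, with each array's background limit as a dashed line. Apart from Bbs12, the IFT and BBS genes sit above 8.3 in every mouse, while 13 of 33 motile axoneme probe sets fail the limit on at least 1 array.

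Genes that work beside the members were read from lists in which the brightest probe set stood for each gene, which favours passing the limit, and 73.9% of all single-gene probe sets passed. All 17 measured genes of primary cilium signalling and ciliary motors were, with a median of 9.09. Adcy3, the adenylyl cyclase of neuronal cilia, stood at 10.59 ± 0.07, and the ciliary receptors Sstr3, Mchr1 and Htr6 at 7.40 ± 0.10, 8.58 ± 0.12 and 7.71 ± 0.23. All 19 measured transition zone and basal body genes were above it, with Cep290, a gatekeeper of the transition zone, at 8.32 ± 0.19, Nphp4 at 7.71 ± 0.21, Iqcb1 at 9.47 ± 0.18 and Rpgrip1l at 9.29 ± 0.14. Of 10 ciliogenesis transcription factors 8 were above it, a share near that of all probe sets. Rfx1 to Rfx4, of the family that binds the X-box, stood at 7.79 ± 0.05, 8.44 ± 0.13, 9.31 ± 0.32 and 9.48 ± 0.14. Gmnc, which starts the multiciliated fate, was under the limit at 4.70 ± 0.27, and so was Myb at 6.42 ± 0.25. Of 17 genes for the assembly and docking of dynein arms 16 were above it, with a median of 8.28. Among them Dnaaf1, Dnaaf2, Dnaaf4 and Dnaaf5 stood at 7.58 ± 0.21, 7.45 ± 0.25, 7.21 ± 0.16 and 7.95 ± 0.06.

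Markers of tissues that could lend motile cilia genes were measured on the same arrays. Of the 5 measured ependymal markers 4 were above the limit, with Dynlrb2 at 7.46, 8.15 and 7.85, Enkur at 6.95, 7.94 and 7.74 and Mlf1 at 8.55 ± 0.39, and Meig1 under it (6.33 ± 0.40). Sntn, a protein of the ciliary tip, stood at 7.18 ± 0.20. In mouse 1 Enkur and Sntn, at 6.95 and 6.96, were close to that array's limit of 6.93. Of 7 choroid plexus markers 6 were above it, among them Ttr at 13.45 ± 0.17, Kl at 8.08 ± 0.07, Clic6 at 8.89 ± 0.10 and Folr1 at 9.08 ± 0.13. Of 9 genes of male germ cells 3 were above it: Prm1 (8.99 ± 0.22), Prm2 (7.50 ± 0.14) and Tnp2 (7.48 ± 0.31), while Tnp1 stood at 5.73 ± 0.35. Both shares, for ependyma and choroid plexus, are near the 73.9% of all probe sets. The part of these tissues in the levels of the motile genes was not tested.

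The spread between the 3 animals was tested for every probe set above the limit against that of probe sets of like level, with limma's robust trended variance model and Benjamini-Hochberg adjustment. No cilia probe set passed: 0 of 40 had an adjusted p under 0.05, against 9 of 13649 over the whole array (0.0659%). At an unadjusted p under 0.05 there were 6 of 40, against 5.27% of all probe sets tested. These 6 (Rsph9, Ift57, Ift74, Cfap36, Rsph1 and Cfap300) were all lowest in mouse 1, as were 53.8% of all single-gene probe sets above the limit. Over the alternative settings the smallest adjusted p of a cilia probe set ranged from 0.394 to 0.987 in limma's model, and 0 passed under each of the 8.

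Of the 40 cilia probe sets tested, Rsph9 had the smallest unadjusted p. Its reading in mouse 3 exceeded that in mouse 1 by 1.79-fold (SD 0.48, adjusted p = 0.689 in limma's model). Ift57, an IFT-B subunit, read 10.77, 11.55 and 11.34 a difference of 1.72-fold between mice 2 and 1 (SD 0.40, adjusted p = 0.792). Ift74, its partner in the same complex, read 9.33, 10.13 and 9.89, or 1.74-fold (SD 0.41, adjusted p = 0.846). Rsph1 differed 1.83-fold between mice 2 and 1 (adjusted p = 0.902), Cfap36 1.67-fold (0.847) and Cfap300, at 8.70, 9.43 and 9.05, 1.65-fold (0.948). These 6 were picked for a large spread, and no single mouse carried it in all of them. Without mouse 1 the SD was 0.014 for Rsph9, 0.12 for Rsph1, 0.15 for Ift57 and 0.16 for Ift74. For Cfap36 it was 0.31 without mouse 1 and 0.22 without mouse 2, and for Cfap300 0.26 and 0.25. The smallest adjusted p over the alternatives, 0.394 in limma's model, was that of Cfap36 without mouse 1.

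The families differed in which mouse was high, as a description with no test. The arrays themselves differed in brightness: over all single-gene probe sets above the limit the median deviation from the mean of the 3 mice was -0.07, 0.10 and -0.02 in mice 1 to 3, 53.8% were lowest in mouse 1 and 25.1% highest in it. Of the IFT-B genes 10 of 11 were lowest in mouse 1, all but Ift172, and of the 5 Bbs genes above the limit 4. With each array centred on its median, 9 of 11 and 4 of 5 were, against 6549 of all 11037 probe sets. After quantile normalization, which removes differences in overall brightness, 5 of 11 and 3 of 5 were, against 4561 of all 11037 probe sets. The median deviation of a class, each probe set taken from its own mean, ranged over mice by 0.25 for the Ift and Bbs genes. Quantile normalization lowered that range to 0.052, and from 0.19 to 0.074 for the motile genes.

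All 4 dynein heavy chain probe sets above the limit, 2 of them for Dnah1, were highest in mouse 1, with a median of 0.23 above their mean there. So were Spag6, Hydin, Cfap97, Bbs7, Ift122, Ift140 and Ift172. In all, 4 of 19 Ift and Bbs and 7 of 20 motile probe sets above the limit were, beside 25.1% of all single-gene probe sets above it. The lead over mouse 2 was slight in some, such as 1 Dnah1 probe set (8.03 against 8.02), Hydin (7.11 in both) and Ift122 (9.49 against 9.48). After quantile normalization the 4 dynein probe sets were again all highest in mouse 1, as were Spag6, Cfap97, Bbs7, Ift122, Ift140 and Ift172. Of all 11037 single-gene probe sets above the limit 4424 were highest in mouse 1 on that scale. The same Dnah1 probe set led by little there (8.018 against 8.016 in mouse 3). Hydin was then highest in mouse 3 (7.04, 7.05 and 7.08). With each array centred on its median, Bbs7 and 1 of the Dnah1 probe sets were highest in mouse 3, as were 5010 of all 11037 probe sets. Of the 5 endothelial markers 4 were also highest in mouse 1, where 25.1% of all probe sets above the limit were, with median deviations of 0.24, -0.04 and -0.20. Among them Kdr read 10.44, 10.07 and 9.83 and Flt1 8.81, 8.37 and 8.28. The part of the endothelium in the dynein readings was not tested. Rsph1 and Rsph9 were lowest in mouse 1 under each of these scalings.

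**Figure D3:**
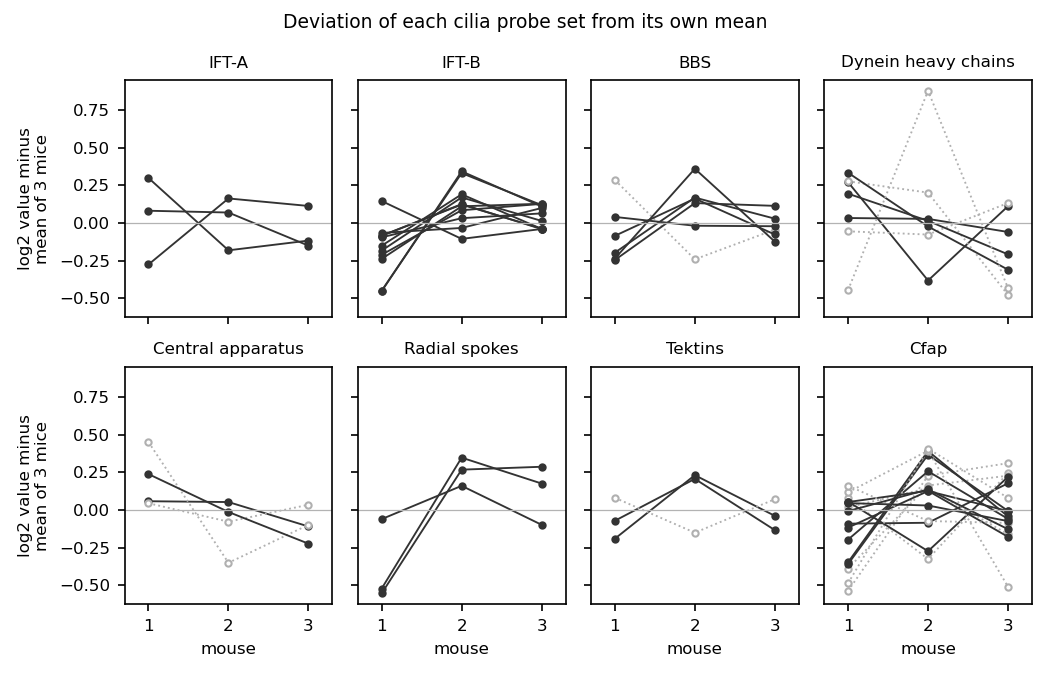
Deviation of each cilia probe set from its own mean over 3 mice (log2), by family. Filled points and solid lines are probe sets above the limit on all 3 arrays, and open points and dotted lines are the others. Lines join the values of 1 probe set and carry no order of the mice. The solid lines of the dynein heavy chains and central apparatus are highest in mouse 1, though barely so for 1 Dnah1 probe set and Hydin. Those of Rsph1 and Rsph9 lie about 0.5 below their mean there.

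The measured ependymal markers, like Rsph1 and Rsph9, were low in mouse 1. All 5, Meig1 included, had their lowest value there, where 53.8% of all single-gene probe sets above the limit were lowest. They had their highest value in mouse 2, where 59.8% of those probe sets were highest. The summed intensity of the 5 ependymal markers was 786.2, 1299 and 1029 in mice 1 to 3. Other cell types had the same direction. All 9 markers of meninges and fibroblasts were highest in mouse 2 and 7 of them lowest in mouse 1, with median deviations of -0.33, 0.34 and 0.06, and 4 had an unadjusted p under 0.05, against 5.27% of all probe sets. All 6 interneuron markers were highest in mouse 2, and 5 of them lowest in mouse 1. Also lowest in mouse 1 were 4 of 5 oligodendrocyte, 4 of 5 microglial, 3 of 4 astrocyte and 5 of 8 other neuronal markers, but only 1 of 5 endothelial ones. The interneuron median deviations of -0.21, 0.18 and 0.03 became -0.08, 0.07 and -0.004 relative to probe sets of like level. On that scale those of the meninges and fibroblasts were -0.26, 0.23 and 0.02, and the ependymal ones -0.42, 0.34 and 0.13. Over the 17 dynein arm assembly and docking genes the sums were 5184, 7151 and 5606, with Nme5, a protein of the radial spokes, at 8.59, 9.74 and 9.35 and Dnali1, an inner arm light intermediate chain, at 7.59 ± 0.46. The summed choroid plexus markers were 11688, 13889 and 14193, and the germ cell markers 1231, 1334 and 1067. Most of the choroid plexus sum came from Ttr in each mouse. No gene of these lists passed the variance test, where 0.0659% of all probe sets did. The part of the ependyma, the meninges or the interneurons in the differences between the mice was not tested.

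Genomic span, taken from the RefSeq table for GRCm38, went along with the difference of mouse 1. Among the 20 motile axoneme probe sets above the limit, mouse 1 exceeded the mean of mice 2 and 3 in 8 of the 10 with the longer genes and in 1 of the 10 with the shorter ones. Over all single-gene probe sets above the limit mouse 1 did so in 2185 of 5504 longer and 1670 of 5507 shorter ones. Spearman's rho between span and the difference was 0.60 over the 20 motile and -0.01 over the 19 Ift and Bbs probe sets. Over 11011 single-gene probe sets rho was 0.18. The points of each share the same 3 arrays, and 2 of the 20 share the gene Dnah1. Mean level went along with it as well: rho between level and the difference was -0.26 over the motile, -0.59 over the Ift and Bbs and -0.31 over all probe sets, and -0.017, -0.52 and -0.019 after quantile normalization. For span, after quantile normalization, rho was 0.46, -0.06 and 0.22, and the counts for the motile genes were 7 of 10 and 2 of 10. Over all single-gene probe sets above the limit the counts were then 3194 of 5504 and 2263 of 5507. The relation was looked for after the values were seen, and spans describe the gene and not its mRNA. The longer motile genes include the dynein heavy chains, Spag6 and Hydin, given above as highest in mouse 1. Span and family cannot be told apart here.

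**Figure D4:**
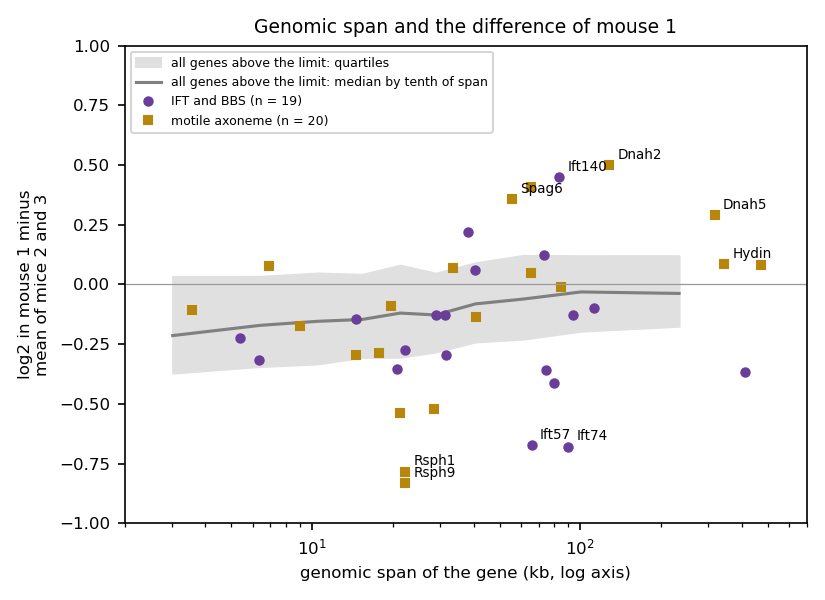
Log2 value in mouse 1 minus the mean of mice 2 and 3 against genomic span (kb, log axis) for Ift and Bbs (circles, n = 19) and motile axoneme probe sets (squares, n = 20) above the limit, with the median (line) and quartiles (band) of all single-gene probe sets in 10 bins of span. Dnah2, Dnah5, Spag6, Ift140 and 1 of the Dnah1 probe sets lie above 0.25, and Rsph1, Rsph9, Ift57 and Ift74 lie below -0.6.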

How the data were processed

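Total RNA was extracted with Trizol and labelled by the Affymetrix sense target assay for whole transcripts, per the labels' protocols. The authors deposited 1 linear intensity per probe set and array. Per the submitters' processing notes, Affymetrix Power Tools and genome build mm8 were used. How background, normalization and summary were handled is not given in the sources used here.

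Log2 was taken with no pseudocount. Of 14938 single-gene probe sets, 14880 matched the RefSeq table of GRCm38 by gene ID, all 54 members among them. Variances were tested in limma 3.58.1 (R 4.3.3) with a robust trended prior (22.2 degrees of freedom) as the upper tail of F, at an adjusted p of 0.05, and the test was tried on simulated data. The number of arrays limits the precision.

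The members, the 14 lists of 159 genes and the tests were chosen with earlier results of these data known. By rule, values per mouse are given for Foxj1, the brightest and dimmest member of each family, genes with several probe sets, members above the limit on 1 or 2 arrays and those with an unadjusted p under 0.05, and means for the first 4 measured genes of the ciliary, ependymal, choroid plexus and germ cell lists. Ift88, Bbs7, Dnah2, Dnah5, Hydin, Tekt1, Rsph9, Dnali1, Nme5, Sntn, Ttc8, Kdr, Flt1 and others were added after their values were seen. Of a list's genes with several probe sets the brightest was used. Alternatives were leaving out each mouse, 2 normalizations, log2(value + 16), other limits, 1 probe set per gene and other variance models, and, added later, other receptor probe sets and a motile class without Cfap genes.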

Additional observations from a re-analysis of the deposited data

How the results depend on the processing

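The count of Ift and Bbs probe sets above the limit was 19 under all 10 alternatives, and that of all cilia probe sets ran from 32 to 44. The motile count was 13 with the limit at the 99th percentile and 11 of 17 without the Cfap genes, and 19 to 24 under the others. The motile median was 7.58 with 1 probe set per gene, 7.82 with log2(value + 16), 8.30 over the members above the limit and 7.45 without the Cfap genes. The range over mice of the median deviation of a class, each probe set taken from its own mean, moved with the scaling. For Ift and Bbs genes it was 0.25 as deposited, 0.22 with arrays centred on their medians and 0.052 after quantile normalization. It was 0.045 relative to probe sets of like level and 0.095 to 0.27 with 1 mouse left out. For motile genes it was 0.061 with arrays centred on their medians, 0.074 after quantile normalization and 0.0099 to 0.17 with 1 mouse left out, the lowest without mouse 2. Over the whole array the number of probe sets with excess variance was 18 with all probe sets tested, 5 with centred arrays, 5 with no trend, 2 after quantile normalization and 9 to 27 with 1 mouse left out, the highest without mouse 1, while the cilia count was 0 throughout. The causes of these shifts were not tested. No paired analysis was possible because the arrays form 1 group. With 3 arrays and many motile genes within 1 log2 unit of the limit, presence and absence near it are uncertain.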
